A study of Rattus norvegicus with 15 samples.

Results

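The cytosolic ribosomal protein genes were followed through 15 mammary tumour libraries of Fischer rats. Members were the rows of the deposited count table whose symbol is RPL or RPS, a number and at most 1 closing A, X or L, together with RPLP0, RPLP1, RPLP2 and RPSA, where at least 1000 reads were counted over all libraries. Of 17463 genes in the table, 78 have such a symbol and 74 are members, 44 of the large and 30 of the small ribosomal subunit. The 4 symbols below the threshold were RPS9 with 0 reads, RPLP2 with 2, RPL37A with 69 and RPL39L with 212. The members just above it were RPL3L with 5073 reads, RPL7A with 5722, RPS27L with 8058 and RPL38 with 17755. Of the 5073 RPL3L reads, 4905 lay in 1 library, midkine 1, and without that library RPL3L would fall below the threshold. RPS9, RPLP2 and RPL37A encode core proteins that every ribosome carries, and their levels are not described from counts near 0. Of the 212 RPL39L reads, 194 lay in 1 library, midkine 6, and the other libraries had 0 to 4.

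All animals received the carcinogen N-nitroso-N-methylurea (NMU) at 50 mg/kg, given by intraperitoneal injection on 2 occasions. In the midkine group (9 libraries), each NMU injection followed 2 weeks of recombinant rat midkine (300 ug/kg per dose, 3 doses weekly). The vehicle group (6 libraries) is labelled by its treatment alone. Midkine is a heparin-binding growth factor. RNA came from small pieces of grown tumours, and poly(A) libraries were read in 150-bp pairs. The labels give neither sex nor age, and they leave unsaid whether tumours with a common title number, such as vehicle 2-1 and 2-2 or midkine 4-1, 4-2 and 4-3, grew in 1 animal. The spread behind each p-value is that between libraries, part of which may be technical or lie within an animal.

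Each cytosolic ribosome holds a single copy of almost every ribosomal protein, bound to ribosomal RNA in a small subunit that reads the messenger RNA and a large subunit that joins amino acids. The genes are read at high and matched levels in growing tissue. Their messenger RNAs usually begin with a C and a run of pyrimidines, the 5′ terminal oligopyrimidine tract, through which the kinase mTOR and the RNA-binding protein LARP1 set how much of them is translated. In mammary epithelium, as elsewhere, this output follows growth signals and MYC, and free ribosomal proteins such as RPL5 and RPL11 can bind MDM2 and stabilise p53.

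The start of the transcript is the stretch that the members have most in common. A start was counted as a pyrimidine tract where a C stood at the annotated start or at most 2 bases to either side and was followed by at least 4 bases that are each C or T, on the gene's own strand. RefSeq promoter entries of assembly GRCr8 were matched by symbol to 59 of the 74 members, and 33 of the 59 (55.9%) held such a tract, 20 of 36 in the large and 13 of 23 in the small subunit. Of 33469 promoters of all kinds, 8.57% held it, and of 21782 promoters of other protein-coding genes 7.99% did. The windows below run 5′ to 3′ from 10 bases before the annotated start through the first 15 bases from it, with the tract in capitals. They show 5 members with a tract, of which RPL19 and RPL31 belong to the tightly co-varying large subunit, RPLP0 and RPLP1 form the stalk and RPS27 has a paralog. They also show 3 members without one, RPS27L, RPL3 and RPL3L, which are described as paralogs further on. A tract by this rule did not go with typical behaviour in each case: RPL13A, the member closest to the others, was not counted, while RPLP0 and RPLP1, among the least typical, hold one. RPL13A has a pyrimidine run that ends shortly before its annotated start, so its place outside the count rests on that annotation. The same holds for other members that were not counted, such as RPL38 and RPS15A. The share of 55.9% rests on the annotated starts to that extent.
RPL19 (GRCr8 chr10:83519054-83519078, plus strand): ccagcaagctCTTTCCTTTCgctgc
RPL31 (GRCr8 chr9:49143101-49143125, plus strand): atccctcgcgCCTTTCCTTTCCaac
RPLP0 (GRCr8 chr12:46718376-46718400, minus strand): caccgcacttCTCTCgccaggcgtc
RPLP1 (GRCr8 chr8:71290858-71290882, minus strand): cgcatgtgatCCTTTCCTCagctgc
RPS27 (GRCr8 chr2:177964592-177964616, minus strand): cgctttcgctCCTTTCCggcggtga
RPS27L (GRCr8 chr8:76443648-76443672, plus strand): ttcatttgtcattatttgtggtgtc
RPL3 (GRCr8 chr7:113507976-113508000, minus strand): gcctgctcgatctctatcggcggcg
RPL3L (GRCr8 chr10:14258436-14258460, plus strand): ctggtgcctggtggggaggtccctt
The windows without capitals hold no tract near the annotated start, which says nothing of where transcription begins in these tumours. The median correlation of a member with the other members, described further on, was 0.677 over the 33 members with a tract and 0.615 over the 26 without one. This split rests on the same annotated starts.

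Libraries held 4925504 to 8486523 counted reads. All 8 epithelial markers, such as KRT8 and EPCAM, were read in every library. Their summed level was 6154 to 8360 raw CPM (reads scaled by the deposited total) in vehicle and 1373 to 12567 raw CPM in midkine libraries. Midkine 1 stood apart through skeletal muscle genes: the 9 measured markers of that tissue summed to 189271 raw CPM there, against 360 to 797 in vehicle and 32.4 to 3177 in the other midkine libraries. MYH4 had 0 reads in midkine 3-1, 4-2 and 4-3 and 1 read each in midkine 3-2 and 4-1, against 461 or more elsewhere. Midkine 5 stood apart through connective tissue genes, with 115753 raw CPM for the 7 fibroblast markers, against 428 to 9217 in vehicle and 206 to 7680 in the other midkine libraries. Midkine 4-2 carried the highest sums of T cell markers (966 raw CPM) and B cell markers (717 raw CPM). In pieces of tumour, fewer cells of a type and less RNA per cell cannot be told apart.

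Ribosomal protein genes took 7.31% to 8.82% of counted reads in the vehicle libraries. In midkine 2, 3-1, 4-1, 4-2, 4-3 and 6 their share was 8.23% to 9.31%, while it was 3.90% in midkine 1, 5.89% in midkine 3-2 and 6.83% in midkine 5. The mean of vehicle was 8.11% ± 0.549 (SD, n = 6), that of midkine 7.52% ± 1.70 (SD, n = 9), and the difference of -0.591 percentage points was smaller than the spread of the midkine libraries. The 3 low libraries were low in different ways. The 50 most read genes outside the set took 37.9% of the reads in midkine 1, 20.9% in midkine 5 and 6.24% to 8.33% in the other 13 libraries, with MYH4 at 5.58% of midkine 1 and COL1A1 at 7.29% of midkine 5. With those 50 genes left out of the total, the share was 8.64% in midkine 5, inside the vehicle range of 7.80% to 9.49%, but still 6.28% in midkine 1 and 6.37% in midkine 3-2.

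**Figure D1:**
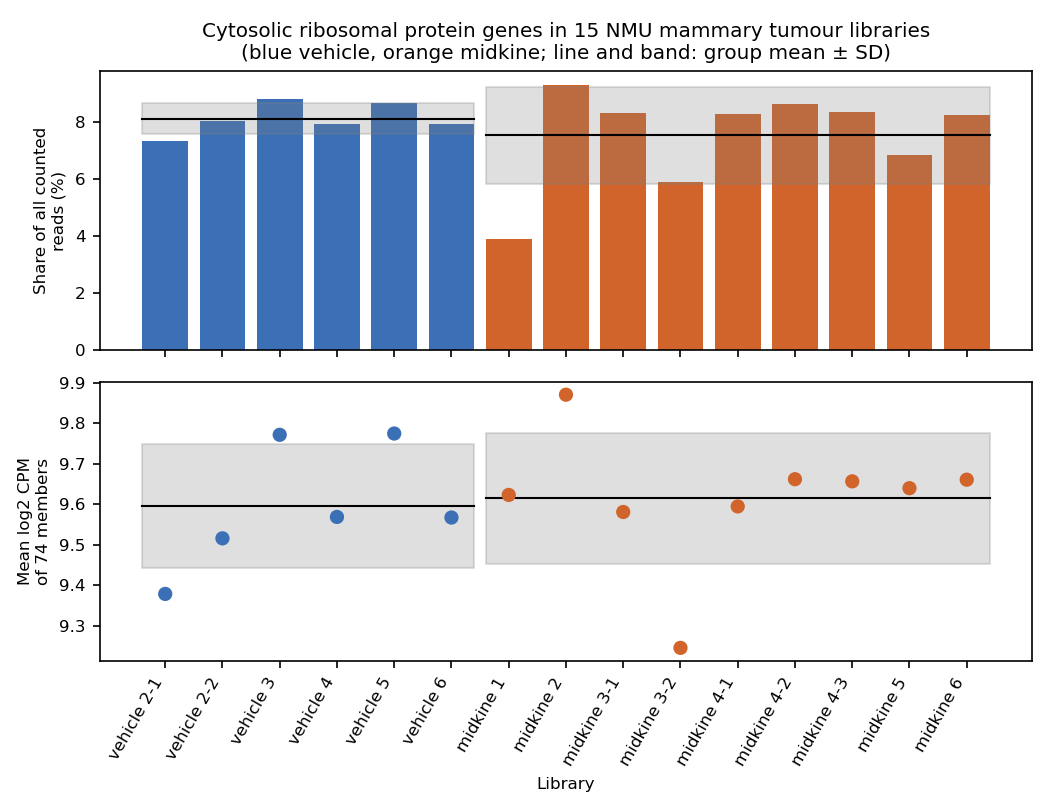
The upper bars give the percentage of all counted reads in ribosomal protein genes and the lower points the mean log2 CPM of the 74 members in each library, with vehicle in blue, midkine in orange and lines and bands for group mean and SD. Midkine 1 has the shortest bar (3.90%) but a mean level of 9.62, while midkine 3-2 is the lowest point at 9.25.

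Levels were then scaled by trimmed mean of M-values (TMM), which sets libraries level over most genes, and are given as CPM or log2 CPM on that scale. The mean log2 CPM of the 74 members was 9.38 in vehicle 2-1, 9.52 in 2-2, 9.77 in 3, 9.57 in 4, 9.77 in 5 and 9.57 in 6. In the midkine libraries it was 9.62 in midkine 1, 9.87 in 2, 9.58 in 3-1, 9.25 in 3-2, 9.60 in 4-1, 9.66 in 4-2, 9.66 in 4-3, 9.64 in 5 and 9.66 in 6. The groups overlapped throughout (vehicle 9.60 ± 0.15, SD, n = 6, midkine 9.62 ± 0.16, SD, n = 9), the lowest and the highest library both belonged to the midkine group, and the whole range over 15 tumours was 1.54-fold. The place of midkine 1 depended on the scaling: its mean level was 9.62 with TMM, where its factor was 0.558, 9.47 with upper quartile scaling and 8.78 with deposited totals alone. It also depended on RPL3L, which is high there alone: over the other 73 members the TMM mean was 9.62 in midkine 1, where only midkine 3-2 (9.37) and vehicle 2-1 (9.49) were lower and the highest library was at 9.99. Midkine 3-2 was the lowest of 15 libraries with TMM, relative log expression (9.31) and upper quartile scaling (9.11), and second to midkine 1 with deposited totals (9.20).

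No member was called between midkine and vehicle. In edgeR's quasi-likelihood test, 0 of 74 members and 0 of 11665 genes tested (0%) had a Benjamini-Hochberg adjusted p under 0.05. All 74 members passed the filter on low counts. An unadjusted p under 0.05 was found for 1 member, RPL3L, which is 1.35% of the members, against 1178 genes or 10.1% of all tested. DESeq2 and limma-voom called 0 members too, while DESeq2 called 92 of 13897 genes (0.662%). For none of the 74 members did the CPM ranges of the groups fail to overlap, as they did for 2 of all genes (0.0171%). Fitted values were above 0 for 36 members and for 55.7% of all genes, and their median was -0.0048 on the log2 scale against 0.040 over all genes.

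Leaving RPL3L aside, fitted log2 fold changes reached 0.22 at the upper end (RPS20), the median half-width of the 95% intervals was 0.283, and no interval among the 73 reached below -0.45 or above 0.53. The large subunit had a median of -0.011 with 18 of 44 values above 0, and the small subunit a median of 0.015 with 18 of 30 above 0. The count above 0 rests on single libraries and on the scaling, since it was 23 without vehicle 2-1 or without midkine 2, 56 without vehicle 5, 58 without midkine 3-2 and 8 with deposited totals alone. With deposited totals the median over all genes itself moved from 0.040 to -0.10, and that of the members to -0.13.

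**Figure D2:**
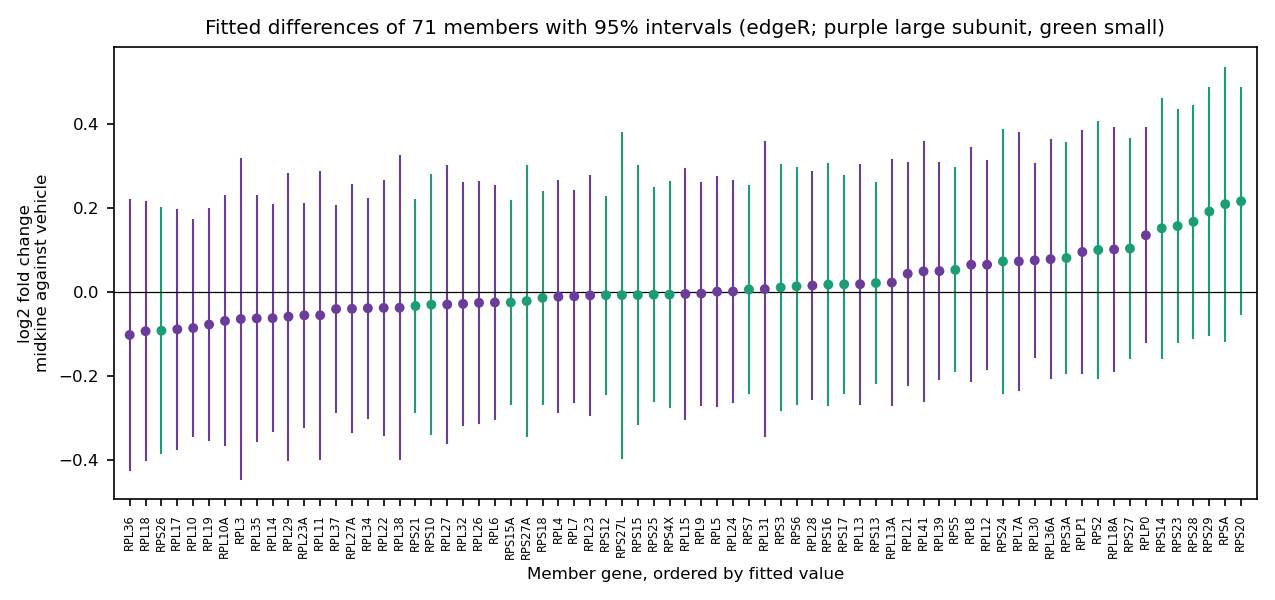
Each point is the fitted log2 fold change of 1 member, midkine against vehicle, and each line its 95% interval (purple large subunit, green small subunit), for 71 of the members, without RPL3L. The values drawn run from -0.10 for RPL36 to 0.22 for RPS20, and every interval drawn spans 0.

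Small subunit proteins made up the upper end. RPS20, a protein of the small subunit's head, had 330 CPM in vehicle 2-1 and 420 to 525 CPM in the other vehicle libraries, against 450 to 609 CPM in midkine (median 497). The ranges overlap, midkine 5 is highest and vehicle 2-1 lowest, and the fitted log2 difference was 0.22 (SE 0.13, adjusted p = 0.603, edgeR). RPSA, which sits at the messenger RNA exit and also exists at the cell surface as a laminin receptor, had 1144 CPM in vehicle 2-1, 1581 to 1857 CPM in the other vehicle libraries and 1402 to 2654 CPM in midkine (median 1775). Again vehicle 2-1 was lowest and midkine 5 highest, with a fitted difference of 0.21 (SE 0.15, adjusted p = 0.704). RPS29, a zinc-binding neighbour of RPS20 in the head, stood at 274 to 443 CPM in vehicle (median 390) and 350 to 509 CPM in midkine (median 426), with the same 2 libraries at the ends (0.19, SE 0.14, adjusted p = 0.697). RPS28 (0.17, SE 0.13) and RPS23 (0.16, SE 0.13), a protein of the decoding centre, were the next in order and likewise lowest in vehicle 2-1. Several of these values lean on single libraries. Without vehicle 2-1 the fitted value was 0.14 for RPS20, 0.12 for RPS29, 0.12 for RPS28 and 0.088 for RPS23, and without midkine 5 it was 0.13 for RPSA.

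Towards the lower end stood RPL36, a large subunit protein, with 670 to 892 CPM in vehicle (median 789) and 530 to 983 CPM in midkine (median 732). Midkine 1 was its lowest and midkine 2 its highest library, so both extremes lay in 1 group, and the fitted log2 difference was -0.10 (SE 0.15, adjusted p = 0.875, edgeR). RPL18 (-0.09), RPS26 (-0.09), RPL17 (-0.09) and RPL10 (-0.09) were close to it, with adjusted p from 0.867 to 0.880 in edgeR. RPL10, which joins the large subunit late and allows the subunits to join, had 1406 to 1589 CPM in vehicle (median 1518) and 1079 to 1704 CPM in midkine (median 1455).

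The members with ties to growth control and p53 had similar levels in both groups. RPL5 had a vehicle mean of 1946 ± 215 CPM (SD, n = 6) beside a midkine mean of 1946 ± 266 CPM (SD, n = 9), and RPL11, its partner in holding the smallest ribosomal RNA, at 1099 ± 173 and 1057 ± 223 CPM. Both were lowest in midkine 3-2 and highest in midkine 2. RPS6, the target of the S6 kinases, stood at 289 ± 44.0 and 292 ± 44.7 CPM, and its fitted value of 0.013 (SE 0.13) changed sign with the scaling and with single libraries. RPS4X, encoded on the X chromosome, stood at 1057 ± 157 and 1052 ± 120 CPM. None of the 7 measured p53 target genes was called, and CDKN1A, which encodes a cell cycle inhibitor, had its highest levels in midkine 3-2 (487 CPM) and midkine 1 (374 CPM), against 28.4 to 171 CPM in vehicle. MDM2 was likewise highest in midkine 3-2 (190 CPM) and midkine 1 (123 CPM), against 50.0 to 100 CPM in vehicle. The other targets did not all follow. CCNG1 (2202 CPM) and SESN1 (143 CPM) were highest in midkine 1, but did not exceed the vehicle range in midkine 3-2 (171 and 26.1 CPM). PHLDA3 lay within the vehicle range in both libraries. BAX, which promotes cell death, was lowest in midkine 3-2 and midkine 1 (77.9 and 78.3 CPM). ZMAT3 was highest in midkine 3-2 (60.3 CPM) and lowest in midkine 1.

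The members varied less between tumours than most genes. The SD of log2 CPM over 15 libraries ran from 0.13 (RPS12) to 0.34 (RPS27L), with RPL3L far outside at 2.69, and its median was 0.202. The median over all genes was 0.507 and over 3912 other genes at or above the lowest mean level of a member other than RPL3L 0.379, and 73 of 74 members lay under the former. That floor was a log2 CPM of 5.77, set by RPL7A, so the 3912 genes were not matched to the members in level. The ratio of the highest to the lowest library was 1.31 for RPS12, 1.66 at the median and 2.59 for RPL3. Within groups, the median SD of the members was 0.177 in vehicle and 0.210 in midkine, or 0.151 in midkine without midkine 1 and 3-2. Over all genes the same values were 0.324, 0.568 and 0.364, so the midkine libraries were more unlike each other than the vehicle libraries in both. Without midkine 1 and 3-2 this order turned round for the members and narrowed for all genes.

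Ribosomal protein genes co-varied across tumours. Over 2701 pairs of members, the median Pearson correlation of log2 CPM was 0.61 (quartiles 0.41 and 0.76), and 96.5% of pairs were above 0. It was 0.66 within the large subunit, 0.60 within the small subunit and 0.58 between them. Pairs of all genes tested had a median of -0.0046, and pairs of the 3912 other genes above that floor, not matched in level, one of 0.0026. All pairs share the same 15 libraries, their depth and their scaling, and the value moved to 0.71 with upper quartile scaling and 0.88 with deposited totals, the scale on which midkine 1 stood lowest.

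Other machines of protein synthesis did not all share that tightness. The 69 mitochondrial ribosomal protein genes had a median pairwise correlation of 0.77 and the 8 genes of the cytosolic chaperonin, which folds actin and tubulin, one of 0.83. Both varied more from tumour to tumour than the cytosolic set, with a median SD of 0.428 and 0.251. The median correlation was 0.54 for 36 proteasome genes, 0.47 for 37 ribosome biogenesis genes, 0.25 for 28 initiation factor genes, 0.16 for 10 elongation factor genes and -0.02 for 14 RNA polymerase I genes. In the comparison of midkine with vehicle, none of these lists had a called gene. Fitted values were above 0 for 24 of 28 initiation factor genes (median 0.11), 27 of 36 proteasome genes (0.07), 36 of 69 mitochondrial ribosomal genes (0.007), 14 of 37 biogenesis genes (-0.02) and 9 of 14 measured genes of mTOR, LARP1 and MYC control (0.09), beside 55.7% and 0.040 over all genes.

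**Figure D3:**
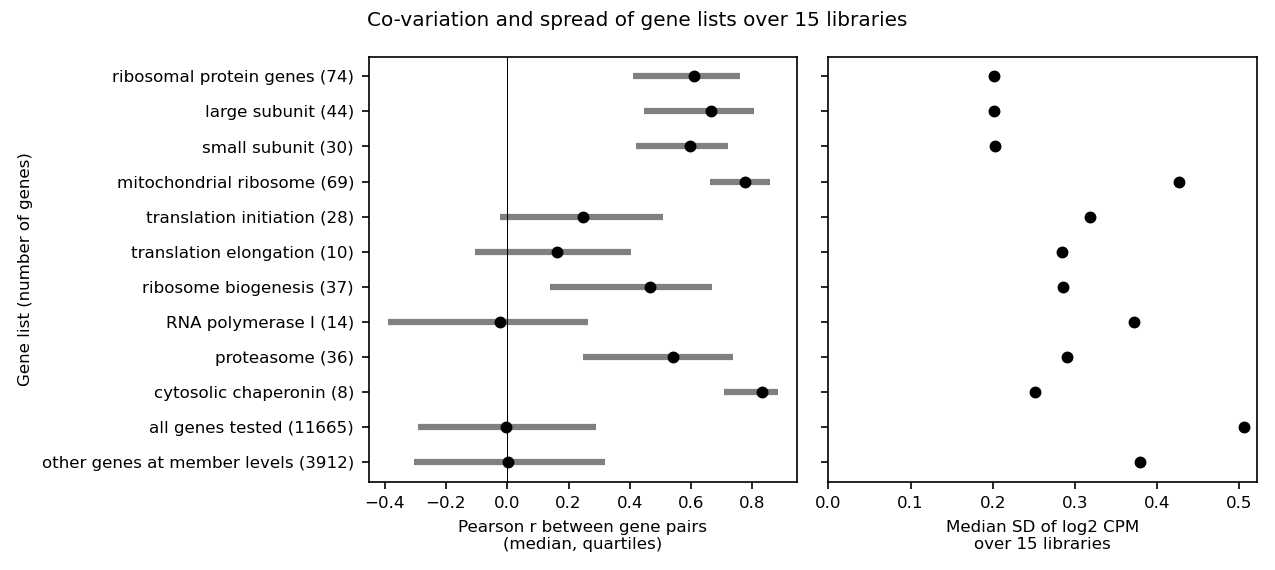
The left panel gives the median (point) and quartiles (bar) of Pearson r between all gene pairs of a list over 15 libraries, the right panel the median SD of log2 CPM of its genes. Ribosomal protein genes join a median r of 0.61 to the smallest median SD, 0.202, while mitochondrial ribosomal genes reach 0.77 at a median SD of 0.428.

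The most typical members belong to the large subunit. RPL13A had a median correlation of 0.77 with the other members, RPL32 0.76, RPL23 0.75 and RPL19 0.75. RPL19, an exit-side protein that also bridges the subunits, ran from 951 CPM in midkine 3-2 to 1576 CPM in vehicle 5. After the median member of each library was taken off, its remaining SD was 0.048, the smallest of all members, followed by 0.054 for RPL23. That remaining SD was at most 0.2 for 61 of the 74 members.

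The least typical members, after RPL3L (-0.09), were RPS29 (0.26), RPLP0 (0.26), RPS20 (0.27), RPLP1 (0.35), RPS3A (0.37) and RPL3 (0.37). Most of these departed from the rest in the same libraries. RPLP0, the stalk protein that anchors RPLP1 and draws elongation factors to the ribosome, had 2219 to 2939 CPM in vehicle (median 2518) and 2620 to 3488 CPM in midkine (median 2717), highest in midkine 4-2 and lowest in vehicle 2-1. RPLP0 and RPLP1 had a correlation of 0.77, RPS20 and RPS29 one of 0.87 and RPS20 and RPLP0 one of 0.78, which became 0.79, 0.87 and 0.82 without midkine 1 and midkine 3-2. RPSA correlated with RPS20 at 0.79 and with RPS2, a neighbour in the ribosome, at 0.80. These pairs were picked after their values had been seen. RPL5 and RPL11, which act as partners, correlated at 0.68, and at 0.49 without midkine 1 and midkine 3-2. After the median member of each library was taken off, RPL5 and RPL11 correlated at -0.45. On that scale RPLP0 and RPLP1 stood at 0.85 and RPS20 and RPS29 at 0.91.

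The libraries that stood apart differed in which members led. To show this, each member's log2 CPM was set against the median member of the library and centred on its own mean, so that 0 is the member's usual place. The interquartile range of these relative levels was 0.089 in midkine 2, the library with the highest mean level, 0.315 in midkine 3-2, 0.266 in midkine 1, 0.228 in midkine 4-2 and at most 0.195 in every other library. Midkine 2 was the highest library for 33 members and vehicle 5 for 13. Midkine 3-2 was the lowest for 43 members, vehicle 2-1 for 17 and midkine 1 for 9.

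In midkine 3-2 the low level was uneven over the members. Apart from RPL3L (-0.75, from 6 reads), RPL31 (-0.33), RPL38 (-0.25) and RPL22 (-0.25) were furthest below their usual place, while RPL3 (0.48), RPS3A (0.45), RPL8 (0.45) and RPS20 (0.44) were furthest above it. RPL31, a protein at the mouth of the peptide exit tunnel, had 836 CPM there and 1201 to 1898 CPM elsewhere. RPL22, whose loss is known to raise its paralog RPL22L1, had 211 CPM in midkine 3-2 and 298 to 424 CPM elsewhere. RPL22L1 was also lowest there, at 53.4 CPM, and highest in vehicle 5 at 126 CPM, and the paralogs correlated at 0.64 over the 15 libraries. The mean log2 level of the mitochondrial ribosomal genes was likewise lowest in midkine 3-2, at 4.37 against 5.17 to 6.17 elsewhere. Ribosome biogenesis genes were highest there (6.81), and MYC had 383 CPM against 81.6 to 213 CPM in the other libraries. Cell type markers differed there too. T cell markers summed to 302 raw CPM and B cell markers to 100 raw CPM, against at most 56.8 and 5.44 in vehicle. Of all libraries, midkine 3-2 had the highest mean log2 level of epithelial markers (10.33), with midkine 4-3 close to it (10.27). It had the lowest of basal markers (7.84) and proliferation genes (4.16), with midkine 1 next (7.87 and 4.35). By summed raw CPM, midkine 4-3 was highest for epithelial markers (12567 against 12445 in midkine 3-2). Midkine 1 was lowest for basal markers by that measure (966 against 2242). What these values have to do with each other was not tested.

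Small subunit members stood relatively higher in some midkine tumours. The mean log2 CPM of the large subunit, without RPL3L, exceeded that of the small subunit by 0.20 ± 0.04 over the vehicle libraries (SD, n = 6) and by 0.15 ± 0.07 over those of midkine (SD, n = 9). It was 0.06 in midkine 3-2, 0.07 in midkine 4-2, 0.07 in midkine 5 and 0.11 in midkine 1, below the vehicle minimum of 0.15, and 0.15 to 0.23 in the other midkine libraries. In midkine 4-2, RPS27 (0.45), RPS23 (0.44) and RPS14 (0.40) were among the members furthest above their usual place. In midkine 5 RPSA was, at 0.69, with RPL7A (0.47) and RPS28 (0.43) next to it apart from RPL3L. The lymphocyte markers of midkine 4-2 and the connective tissue markers of midkine 5 given above accompany these values, and their part in them was not tested.

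**Figure D4:**
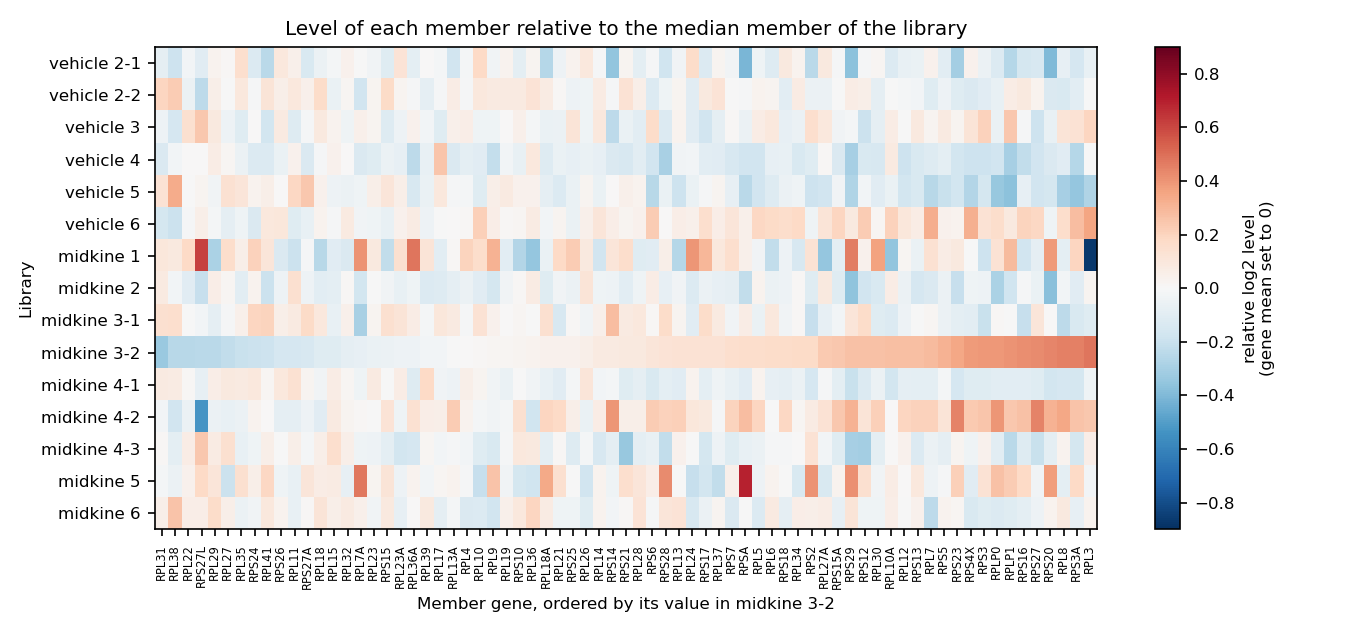
Colours give the relative log2 level of 71 members (columns, ordered by their value in midkine 3-2, without RPL3L) in 15 libraries (rows), where 0 is the member's mean over libraries after the library's median member is taken off. Midkine 3-2 spans -0.33 (RPL31) to 0.48 (RPL3), the darkest blue cell is RPL3 in midkine 1 (-0.87) and the darkest red one RPSA in midkine 5 (0.69).

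RPL3 and RPL3L gave the largest difference of all members, and it lay in 1 tumour, midkine 1. RPL3L was counted as a member only through that same tumour, which held 4905 of its 5073 reads. RPL3 encodes a large subunit protein close to the site of peptide bond formation, and RPL3L is its paralog in skeletal and heart muscle, where it takes the place of RPL3. RPL3L had 0.818 to 2.38 CPM in vehicle. In the midkine libraries it had 1168 CPM in midkine 1, 10.9 CPM in midkine 5 and 0.311 to 2.09 CPM in the other 7. RPL3 had 1055 CPM in midkine 1 against 1800 to 2727 CPM in vehicle and 1941 to 2701 CPM in the other midkine libraries. In midkine 1 the reads of the pair were 4430 for RPL3 and 4905 for RPL3L, so that RPL3L took 52.5% of them (95% Wilson interval 51.5% to 53.6%, counting error only). It took 0.541% in midkine 5 (61 reads) and 0.0146% to 0.116% in the remaining libraries. With TMM the sum of both was 2223 CPM in midkine 1, within the 1801 to 2728 CPM of the other 14 libraries. That place depended on the scaling. By deposited totals midkine 1 had 582 raw CPM of RPL3 and 644 raw CPM of RPL3L. Every other library had 1773 raw CPM or more of RPL3 alone.

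The fitted log2 fold change of RPL3L was 6.46 (SE 2.24, adjusted p = 0.399, edgeR), and it rests on midkine 1. With the same libraries DESeq2 gave 0.40 (SE 0.74) and limma-voom 0.40 (SE 1.34), so the size of the value depends on the tool as well. It was not fitted without midkine 1, since too few libraries then passed the filter, and the same held without midkine 2 or midkine 5. Its presence in midkine 1 went with the skeletal muscle markers given above, all 9 of which were highest in that library. EEF1A1 and EEF1A2, a pair of elongation factor genes in which the latter serves muscle and neurons, showed the same arrangement: EEF1A2 took 47.8% of their reads in midkine 1, 0.836% in midkine 5 and at most 0.128% elsewhere. EEF1A1 was lowest in midkine 1, at 4284 CPM against 6339 to 10519 CPM in the other libraries.

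**Figure D5:**
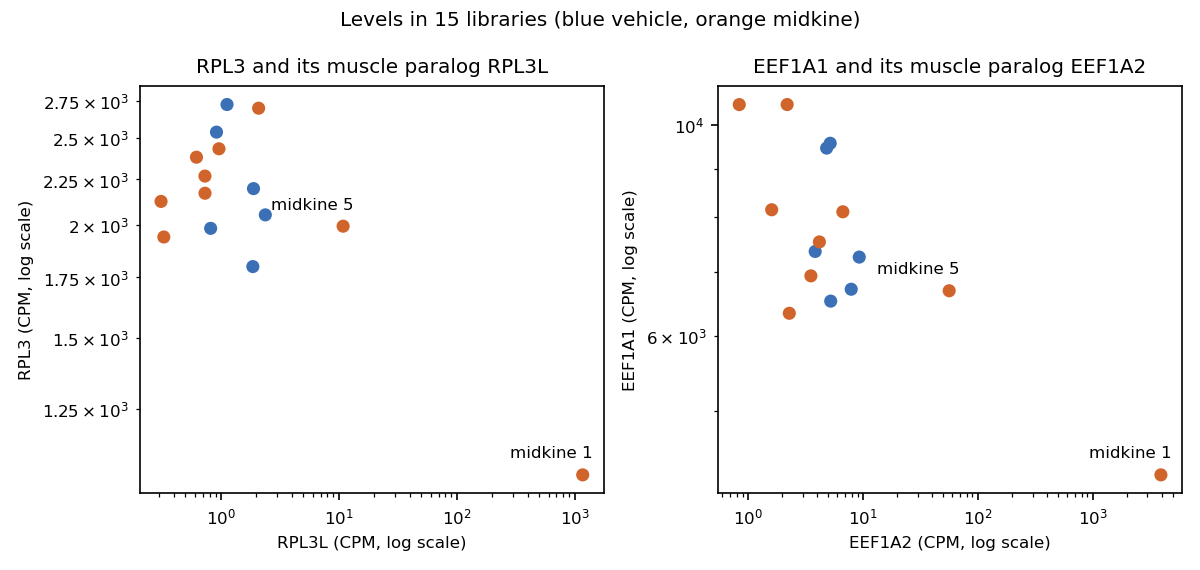
Each point is 1 library (blue vehicle, orange midkine), with the paralog used in muscle on the horizontal axis and the widely used gene on the vertical axis, both in CPM on log scales. Midkine 1 lies alone at 1168 CPM of RPL3L and 1055 CPM of RPL3, and midkine 5 is next along the horizontal axis at 10.9 CPM of RPL3L.

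RPS27L, a paralog of RPS27 known as a p53 target, had, after RPL3L, the largest SD of log2 CPM (0.34). It stood at 60.5 to 101 CPM in vehicle (median 76.5) and 47.0 to 106 CPM in midkine (median 82.6), with a log2 fold change of -0.0081 (SE 0.18, adjusted p = 0.993, edgeR). Midkine 1 was highest and midkine 3-2 lowest, with midkine 4-2 next at 51.1 CPM. RPS27 itself was highest in midkine 4-2, at 748 CPM against 453 to 679 CPM in the other libraries, and RPS27L took 6.40% of the reads of the pair there and 18.0% in midkine 1. Across 15 libraries RPS27 and RPS27L correlated at -0.28, while RPL36A and its paralog RPL36AL did at 0.64.

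Genes tied to the ribosome outside the set followed it to unlike degrees. The correlation with the mean level of the members was 0.82 for RPL36AL, 0.78 for FAU, which encodes a ribosomal protein fused to a ubiquitin-like part, and 0.73 for RACK1, a scaffold on the small subunit. Among nucleolar genes NPM1, a chaperone, reached 0.60, FBL, which methylates ribosomal RNA, 0.40, and NCL 0.04. Of other translation genes looked at by name, EEF2 stood at 0.20, TPT1 at 0.12, PABPC1 at 0.05 and EEF1A1 at -0.12. The members' mean used here includes RPL3L. With RPL3L left out, TPT1 stood at -0.075 and EEF1A1 at 0.039, so both signs turned. FBL then stood at 0.52, RACK1 at 0.81 and FAU at 0.83. MYC stood at -0.32 with all members and at -0.23 without RPL3L. Its highest level, 383 CPM, lay in midkine 3-2, where the members' mean was lowest (9.25). How far the correlation of MYC rests on that library was not tested. Among 9206 other genes with a mean log2 CPM of at least 3, the pattern most like the members' mean was that of EIF3M, an initiation factor subunit (Pearson r 0.91, Spearman rho 0.80), followed by EEF1B2, an elongation factor subunit (0.89 and 0.89), MCTS1, a translation reinitiation factor (0.88 and 0.70), and ITPA (0.86 and 0.74). Without midkine 3-2 and midkine 2, the libraries farthest from the median, r was 0.82, 0.91, 0.74 and 0.74. With RPL3L left out of the members' mean, r over 15 libraries was 0.90, 0.85, 0.82 and 0.86. The genes listed here have the highest of many correlations over libraries that share depth and scaling, and are given as a description.

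Copies in the genome bear on every value. In GRCr8, 72 of the 74 members have annotated pseudogenes named after them, 846 in all with a median of 11 per member and up to 36 for RPS2, while RPL3L and RPS27L have none. RPS9, listed at 0 in every library, has 16, and RPL7A, just above the threshold, has 20. Reads that match a gene and its copies could have been split or dropped in the counting, and no source used here says how such reads were treated. Levels of single members are uncertain to that extent.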

How the data were processed

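Messenger RNA of 15 rat mammary tumour samples was measured. The authors deposited raw read counts per gene symbol in a single table, per the file headers. The build is rn6, per the submitters' processing notes. The deposited table is named for the aligner STAR. Its version, the annotation, the counting mode and the strand setting were not given in the sources used here. Samples were grouped by treatment label. The main test was that of edgeR 4.0.16 in R 4.3.3 (filter by group, TMM, quasi-likelihood F test, Benjamini-Hochberg adjustment over 11665 genes, threshold 0.05), with DESeq2 1.42.0 and limma-voom 3.58.1 as alternatives. Standard errors are the fold change over the square root of F, and the test was tested on simulated data. Log2 CPM used a prior count of 2. The closest pair of libraries within a group, vehicle 2-1 and 2-2, had a chi-square of 20.3 per degree of freedom, beyond sampling noise. The members, gene lists and library splits were chosen with earlier results of these data known. Genes were named by a rule that took paralog pairs, members with roles outside the ribosome, and the ends of abundance, fold change, correlation and relative level. Abundance was to be taken per coding length, but no such lengths were used here, so mean CPM was used and levels of different genes are not compared. Start sequences come from RefSeq (GRCr8), whose coordinates are not those of the counts. Other settings were scaling, filter, test, title number as a block, summed title numbers, each library left out and libraries with MYH4 reads (more than 1). This last setting kept all vehicle libraries but only midkine 1, 2, 5 and 6. Some genes that the naming rule gives are not reported here.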

Additional observations from a re-analysis of the deposited data

Results flagged for a closer look

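Of 72 sets of values checked (36 measures in 2 groups), 8 held a library far from the others of its group, where chance gives about 1 in 20 independent sets. The sets were not independent, since the members co-varied and some were named for extreme values. The number can therefore not be set against that rate. The mean log2 level of the members was 9.25 in midkine 3-2, with the next midkine library at 9.58. The same library was far below the others for RPL22 (7.73, next 8.32), RPL23 (9.41, next 9.86), RPL39 (7.20, next 7.58) and RPL4 (10.58, next 10.95). Midkine 1 was far below the others for RPL3 (10.04, next 10.92) and far above them for RPL3L (10.19, next 3.48). In vehicle, RPSA in library 2-1 was far below the rest (10.16, next 10.63).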

How the results depend on the processing

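No member was called by adjusted p in any of 24 other settings, and the members' median log2 fold change stayed between -0.13 and 0.060. DESeq2 called 92 of all genes. Members with a value above 0 numbered 8 with deposited totals, 58 among libraries with MYH4 reads and 23 to 58 with 1 library left out in turn. With deposited totals the mean level differed by -0.14 and the median pairwise correlation was 0.88; with upper quartile scaling that correlation was 0.71. RPL3L stood at 0.40 with DESeq2 and with limma-voom, against 6.46. Values near 0 changed sign. RPS27L stood at 0.012 with relative log expression, 0.0089 with DESeq2, 0.20 among libraries with MYH4 reads, 0.0032 with title numbers summed and -0.072 to 0.079 with 1 library left out. RPS6 stood at -0.0079 with upper quartile scaling, -0.10 with deposited totals, -0.0056 with title numbers summed and -0.043 to 0.089 with 1 library left out. RPL3 ranged from -0.12 to 0.033 with 1 library left out, and RPLP1 stood at -0.043 with deposited totals. Vehicle and midkine libraries of the same title number did not deviate together (correlations of -0.24 to 0.14). These values show no pairing of the groups by number but cannot exclude one, as the tissue content of single libraries also enters them. The check leaves aside libraries that share a number within a group. With the title number as a block, 0 members were called, 50 of 74 values were above 0, RPL3 stood at 0.0095 and RPL3L at -0.0033, since midkine 1 is the only library of its number. Depth limits RPL3L, with 2 to 15 reads in 13 libraries.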
